A study of Mus musculus with 8 samples.

Results

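The cytosolic ribosome is built from ribosomal RNA and about as many different proteins as this family has genes, and the messenger RNAs of these proteins were measured here in cultured embryonic mouse kidneys. The family was taken by name and biotype: of 30890 genes in the count table, 86 carried the name of a cytosolic ribosomal protein of the large subunit (Rpl, with Rplp0, Rplp1 and Rplp2) or of the small subunit (Rps, with Rpsa). The 4 of these annotated as pseudogenes were left out, as were the S6 kinases, and the remaining 82 protein-coding genes, 50 for the large and 32 for the small subunit, are described below. Rpl3l and Rpl39l had too few counts to be tested, which left 80 tested genes. The rule uses names and biotypes only.

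Kidneys were taken at embryonic day E12.5 from wild-type C57BL/6 mice and were cultured for 72 hours with 5 µM CHIR99021 (4 samples) or with 0.1% DMSO, its solvent (4 samples). CHIR99021 is a small molecule that inhibits the kinase GSK-3 and thereby activates Wnt/β-catenin signalling. According to the study's methods, the left kidney of an embryo served as control and the right kidney was treated, and kidneys in which Wnt target genes did not respond were not used, so the treated samples were chosen for their response. Each library gave between 14599082 and 17751992 counts assigned to genes, of which 563085 to 935823 fell in the family.

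Ribosomal protein genes are known for being expressed together in every cell, since each ribosome needs 1 copy of nearly every protein. Most of their mRNAs begin with a C followed by a run of pyrimidines, the 5′ terminal oligopyrimidine (TOP) motif, through which mTORC1 and LARP1 control their translation and stability. The transcription factor MYC raises their transcription, and RPL5 and RPL11 bind MDM2 when ribosome assembly fails, which stabilises p53. In embryos, loss of single ribosomal proteins is known to give defects of particular tissues.

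Nearly the whole family was more abundant after CHIR99021. In edgeR's quasi-likelihood test with Benjamini-Hochberg adjustment over all 16723 tested genes, 77 of the 80 tested members were higher at an adjusted p under 0.05 and 0 were lower. No member was lower at an unadjusted p under 0.05 either, and DESeq2 and limma-voom also called 77 higher and 0 lower. Over all tested genes 3958 were called higher (23.7%) and 4180 lower (25.0%), which makes 48.7% in either direction, and among the 2503 genes with a mean of at least 100 CPM (counts scaled by TMM and expressed per 1000000 of the library), a level that most members reach, 40.6% were higher and 20.0% lower. The median log2 fold change of the members was 0.53, or 1.44-fold, against -0.003 over all tested genes. The changes were uniform and moderate. Their interquartile range was 0.46 to 0.59, the smallest called change was 1.09-fold, the largest was 1.74-fold, and no member passed a log2 fold change of 1, as 4.65% of all tested genes did upwards. In 76 of 80 members the 4 CHIR99021 samples all lay above the 4 DMSO samples, a pattern that 22.7% of all tested genes showed. The size depended on the scaling. Quantile normalisation, which gives all samples the same distribution of values, brought the median to 0.32 with 66 members called higher on log2 counts and to 0.18 with 47 called on log2 FPKM, where Rpl22, Rpl7l1, Rpl36, Rpl8, Rpl3 and Rpl7 were below 0.

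The family's part of all counts, which sets each sample against its own total only, rose as well. It was 3.87%, 3.89%, 4.20% and 3.86% in DMSO replicates 1 to 4, with a mean of 3.96% ± 0.165 (SD, n = 4). In CHIR99021 replicates 1 to 4 it was 5.55%, 5.08%, 5.16% and 5.30%, with a mean of 5.27% ± 0.203 (SD, n = 4). The groups did not overlap, and the share was 1.33 times as large after CHIR99021. The widest 95% Wilson interval of a sample spanned 0.0227 percentage points, which covers counting error only. DMSO replicate 3 was the highest control, and it was also the highest DMSO sample for 60 of the 80 tested members. CHIR99021 replicate 1 was the highest treated sample for 50 of them.

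The subunits kept their proportion. Large subunit genes held 2.22% ± 0.0799 (SD, n = 4) of the counts in DMSO and 2.95% ± 0.108 (SD, n = 4) in CHIR99021, and small subunit genes held 1.74% ± 0.0882 and 2.32% ± 0.0971. Small subunit genes made up 43.9% ± 0.545 of the family's counts in DMSO and 44.0% ± 0.322 in CHIR99021, a difference smaller than either SD. Of the small subunit genes 32 of 32 were called higher, with a median log2 fold change of 0.55, and of the tested large subunit genes 45 of 48 were, with a median of 0.51.

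**Figure D1:**
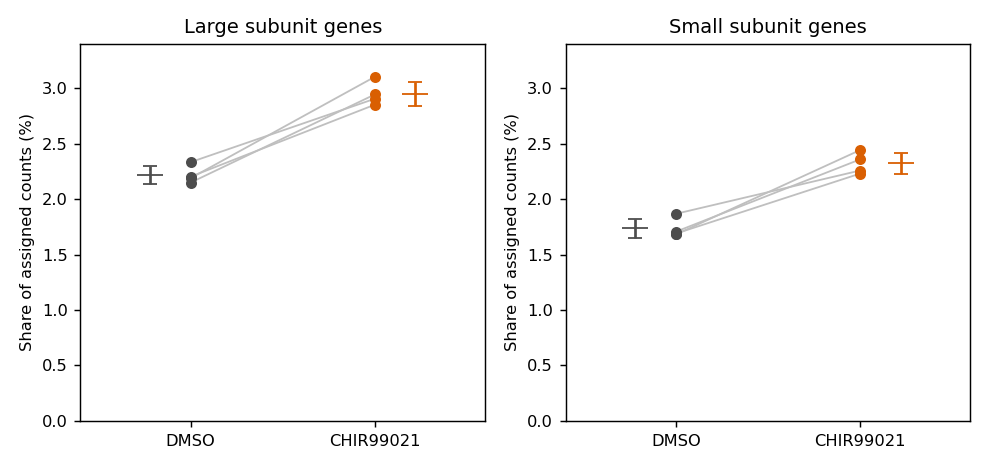
Share of all counts assigned to genes (percent, y axis) that fell in large subunit genes (left) and small subunit genes (right) in each sample; lines join the DMSO and CHIR99021 samples of the same number, and the bars beside the points give the mean ± SD (n = 4). Both shares were higher in every CHIR99021 sample than in every DMSO sample, by 0.73 percentage points of all counts for the large and 0.59 for the small subunit.

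Other properties of the samples moved together with the family. Mitochondrial transcripts took 2.88% ± 0.371 (SD, n = 4) of the counts in DMSO and 3.94% ± 0.316 in CHIR99021, and 12 of 15 tested mitochondrial genes were called higher. Markers of kidney identity were lower for 8 of 8 genes (summed CPM 1171 to 1430 in DMSO, 594 to 688 in CHIR99021), and Six2, which marks nephron progenitors, went from 203 ± 28.4 to 5.05 ± 1.70 CPM (SD, n = 4). Endothelial markers were lower for 5 of 5 genes (summed CPM 364 to 510 and 133 to 187), and macrophage markers for 8 of 8 (74.5 to 241 and 25.6 to 48.1), with no gene of these lists at 0 throughout a group. Liver markers, of which 3 of 7 were tested and all 3 called lower, summed to 1269 and 901 CPM in DMSO replicates 2 and 4. They summed to at most 57.2 in the other DMSO samples and to at most 7.49 in CHIR99021, where Ttr was at 0. Fga lost its call in 14 alternatives of the fit and Afp in 9, while Serpina1a kept it in all 26. Red blood cell markers summed to 8.33 to 27.4 CPM in DMSO and 7.24 to 16.8 in CHIR99021, and of 4 tested genes edgeR called 0, also 0 at an unadjusted p under 0.05, while DESeq2 called Hbb-bt lower. Cell division genes were lower for 8 of 10 genes, where 25.0% of all tested genes were called lower and 23.7% higher. The part of these cell types and of the mitochondrial share in the family's rise was not tested. Without DMSO replicates 2 and 4, 75 members were called higher, with a median of 0.50. In bulk tissue, more cells with many ribosomes and more ribosomal protein mRNA per cell cannot be told apart.

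**Figure D2:**
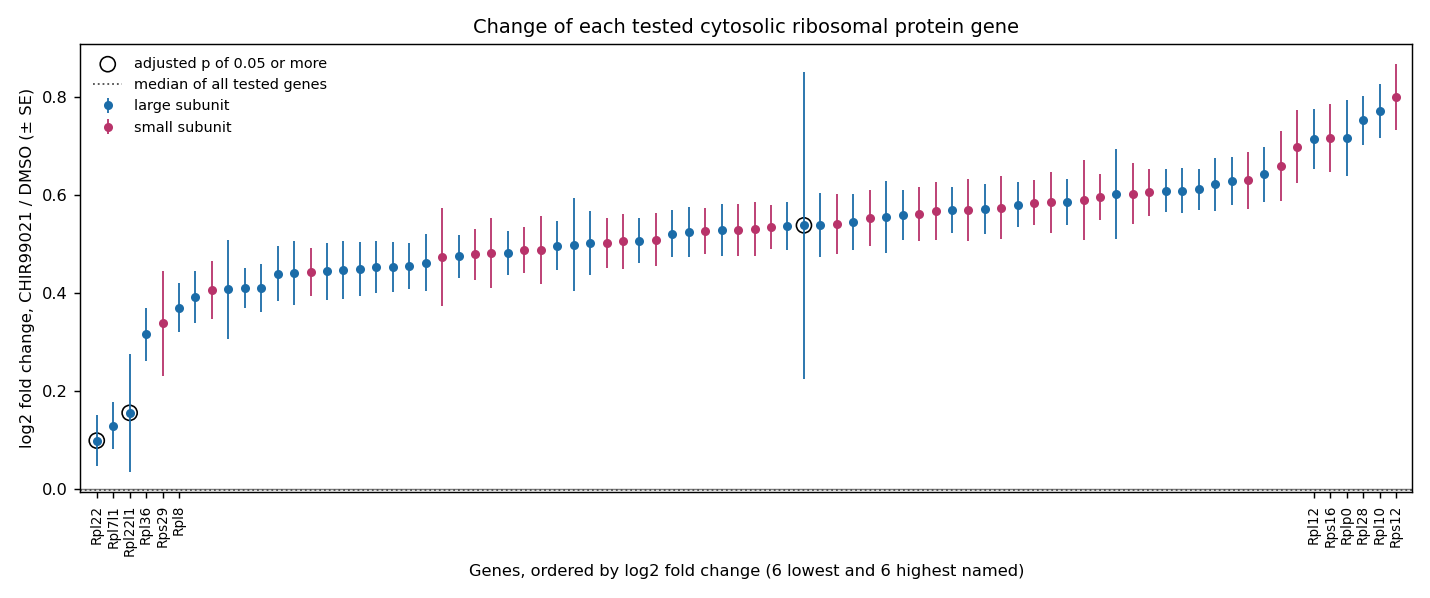
The log2 fold change of CHIR99021 over DMSO (y axis, with its standard error) of each of the 80 tested members, ordered by size with the 6 lowest and 6 highest named; colours mark the subunits, black rings mark the members with an adjusted p of 0.05 or more, and the dotted line is the median of all tested genes. With TMM scaling all 80 values are above 0, most lie between 0.4 and 0.7, and Rpl22, Rpl7l1 and Rpl22l1 stand at the low end near 0.1.

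The members with the largest changes came from both subunits. Rps12, a protein of the small subunit head, had 384, 373, 396 and 382 CPM in DMSO replicates 1 to 4 and 776, 629, 631 and 634 CPM in CHIR99021 replicates 1 to 4. All treated samples lay far above the controls, with replicate 1 the highest. The log2 fold change was 0.80 ± 0.07 (SE), with an adjusted p of 9.12e-07 in edgeR. Rpl10, which joins the large subunit in a last step of its assembly, had 672, 694, 677 and 638 CPM in DMSO and 1236, 1136, 1137 and 1065 CPM in CHIR99021, a change of 0.77 ± 0.05 (edgeR adjusted p = 2.19e-07). Rpl28 had 351, 350, 380 and 343 CPM in DMSO and 583, 585, 593 and 636 CPM in CHIR99021. Its groups were tight and separate, and the change was 0.75 ± 0.05 (edgeR adjusted p = 1.19e-07). Rps16 and Rpl12 followed at 0.72 ± 0.07 and 0.71 ± 0.06.

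The P-stalk is the flexible arm of the large subunit that recruits translation factors, and all 3 of its genes were higher. Rplp0, which carries the stalk, had 1901, 1865, 1897 and 1801 CPM in DMSO and 3638, 2990, 2907 and 2724 CPM in CHIR99021, a change of 0.72 ± 0.08 (edgeR adjusted p = 8.97e-06). Its treated samples spread more than its controls, with an SD of 398 against 46.4 CPM, and replicate 1 was again the highest. Rplp1 changed by 0.55 ± 0.07 and Rplp2 by 0.46 ± 0.06, and neither had overlapping groups.

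The 2 ribosomal proteins of the 5S particle, which bind MDM2, both rose. Rpl5 had 1181, 1175, 1182 and 1113 CPM in DMSO and 1767, 1707, 1816 and 1689 CPM in CHIR99021 (log2 fold change 0.59 ± 0.05, edgeR adjusted p = 6.92e-07). Rpl11 had 303, 307, 343 and 315 CPM in DMSO and 462, 409, 418 and 442 CPM in CHIR99021 (0.45 ± 0.06, edgeR adjusted p = 2.33e-05). In both genes every treated sample was above every control. Of 11 genes of the MDM2 and p53 pathway, 5 were called higher, 1 lower and 5 neither. Over all tested genes 23.7% were called higher and 25.0% lower. Cdkn1a, a p53 target that stops the cell cycle, changed by 0.96 ± 0.12, Phlda3 by 0.80 ± 0.14 and Mdm2 by 0.26 ± 0.06, while Bbc3, a p53 target of cell death, fell by 0.58 on the log2 scale.

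Members known from development and disease moved with the rest. Rps6, the small subunit protein phosphorylated by the S6 kinases, had 1211, 1302, 1343 and 1227 CPM in DMSO and 1825, 1726, 1819 and 1828 CPM in CHIR99021 (0.50 ± 0.05, edgeR adjusted p = 4.51e-06). Rpl38, whose loss in mice alters the vertebral pattern, had 83.7, 79.3, 90.8 and 84.6 CPM in DMSO and 136, 112, 117 and 126 CPM in CHIR99021 (0.54 ± 0.06, edgeR adjusted p = 1.90e-05). Neither gene had overlapping groups. Rps19, the first gene tied to Diamond-Blackfan anaemia, had 221, 241, 293 and 275 CPM in DMSO and 393, 385, 361 and 411 CPM in CHIR99021 (0.59 ± 0.08, edgeR adjusted p = 9.83e-05). Of 15 genes of that disease 15 were called higher, with a median of 0.58, and of 8 genes with developmental mutants in mice 7 were, with a median of 0.57, Rpl24 being the exception.

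Rpsa, a small subunit protein also known as a laminin receptor, had 1777, 1699, 1734 and 1575 CPM in DMSO and 2693, 2385, 2479 and 2400 CPM in CHIR99021 (0.55 ± 0.06, edgeR adjusted p = 5.40e-06). Rps27a, made as a fusion with ubiquitin, changed by 0.57 ± 0.06, and Rpl10a, a protein of the L1 stalk, by 0.51 ± 0.05. The DMSO samples of Rpl10a were the most alike of these genes, at 382 to 389 CPM, and its treated samples had 534 to 586 CPM.

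The low end of the family was held by Rpl22 and by relatives of other members. Rpl22, a large subunit protein that cells can do without, had 317, 314, 353 and 309 CPM in DMSO and 356, 335, 332 and 360 CPM in CHIR99021. The groups overlapped, since DMSO replicate 3 exceeded CHIR99021 replicates 2 and 3. The change was 0.10 ± 0.05, or 1.07-fold, with an edgeR adjusted p of 0.146. Without DMSO replicate 3 it was 0.14 with an edgeR adjusted p of 0.0338. With limma on log2(FPKM + 1) after quantile normalisation it was -0.21 with an adjusted p of 0.0104. Over all alternatives the change of Rpl22 ran from -0.22 to 0.14 and the adjusted p from 0.0104 to 0.686. Rpl22l1, the copy of Rpl22 whose RNA is kept low by RPL22 protein, had 7.63, 9.48, 10.2 and 9.42 CPM in DMSO and 9.92, 11.4, 9.62 and 9.86 CPM in CHIR99021. Its groups overlapped as well, and the change was 0.15 ± 0.12 (edgeR adjusted p = 0.315). With limma on log2 counts after quantile normalisation it was 0.32 with an adjusted p of 0.0300, and 0.0436 with the replicate block. Over its alternatives the change ran from 0.02 to 0.32 and the adjusted p from 0.0300 to 0.915.

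Rpl7l1, related to Rpl7 and to a yeast factor of large subunit assembly, had 102, 105, 107 and 102 CPM in DMSO and 121, 110, 109 and 114 CPM in CHIR99021. The groups did not overlap, but the gap was small. The change was 0.13 ± 0.05 (edgeR adjusted p = 0.0385), a call that was lost with the replicate block (adjusted p = 0.0604) and when any of DMSO replicates 1, 2 and 4 or CHIR99021 replicates 1 and 4 was left out (edgeR adjusted p between 0.0709 and 0.100). Scaled by library totals alone, the value was -0.007, against a median of all genes of -0.14 on that scale, which leaves 0.13 relative to the median. Rpl7 itself had 1106, 1133, 1198 and 1121 CPM in DMSO and 1702, 1589, 1545 and 1594 CPM in CHIR99021 (0.50 ± 0.05, edgeR adjusted p = 4.51e-06).

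The remaining low members were Rpl36 at 0.32 ± 0.05, Rps29 at 0.34 ± 0.11 and Rpl8, a protein of the peptidyl transferase centre, at 0.37 ± 0.05, with edgeR adjusted p of 0.000364, 0.0229 and 5.61e-05. Rps29 had 38.5, 39.3, 49.3 and 45.1 CPM in DMSO and 61.7, 51.7, 45.1 and 58.8 CPM in CHIR99021, so CHIR99021 replicate 3 lay within the range of the controls. Of the 77 members called higher, Rps29 alone had overlapping groups, and its call was lost in 13 of 26 alternatives, such as when 1 sample among DMSO replicates 1 and 2 and CHIR99021 replicates 1 and 4 was left out (log2 fold change 0.27 to 0.30). Rpl8 had 724, 773, 821 and 779 CPM in DMSO and 989, 970, 1009 and 1033 CPM in CHIR99021, with a clear gap between the groups.

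**Figure D3:**
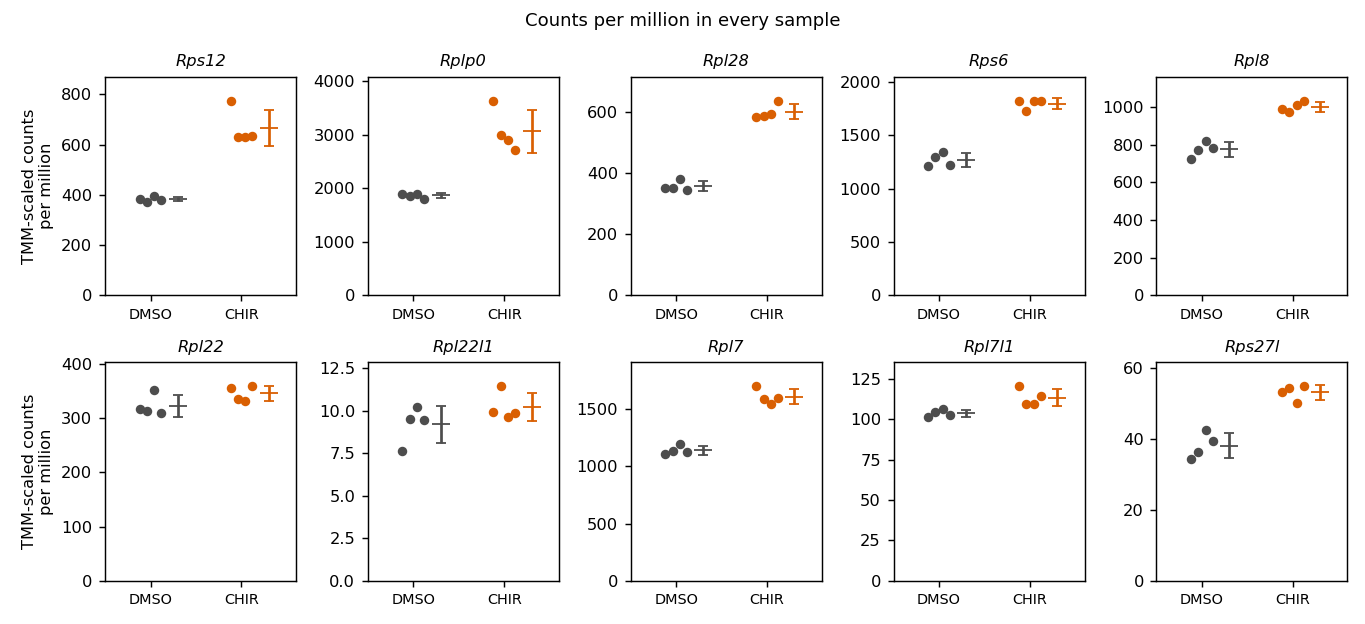
Level in CPM (y axis, from 0) of 10 members in each of the 4 DMSO (grey) and 4 CHIR99021 samples (CHIR, orange), with the mean ± SD beside the points. Rps12, Rplp0, Rpl28, Rps6, Rpl8, Rpl7 and Rps27l show separate groups with a wide gap, Rpl7l1 a narrow gap, and Rpl22 and Rpl22l1 overlapping groups.

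To ask which members departed from the rest of the family, the fit was repeated over all tested genes with the family's summed counts as the library size, a comparison added after the values were known. On that scale 5 members were higher (Rps12, Rpl10, Rpl28, Rps16 and Rpl12) and 10 were lower (among them Rpl22, Rpl7l1, Rpl22l1, Rpl36, Rps29, Rpl8 and Rpl3), and 65 of 80 passed in neither direction. Of all tested genes 5.41% were higher and 74.6% lower on that scale, so the adjusted values lie close to the unadjusted ones. Relative to the family Rpl22 was at -0.45 ± 0.05 (edgeR adjusted p = 5.29e-06), Rpl7l1 at -0.42 ± 0.05 (edgeR adjusted p = 7.98e-06) and Rpl22l1 at -0.39 ± 0.12 (edgeR adjusted p = 0.00984). The next, Rpl36, was at -0.23 ± 0.06. At the other end Rps12 was at 0.25 ± 0.06 (edgeR adjusted p = 0.00253), Rpl10 at 0.22 ± 0.06 and Rpl28 at 0.20 ± 0.06.

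The shares of paralogs within their pairs were compared by FPKM, a level per kilobase of gene. Rpl7l1 made up 8.59% ± 0.131 (SD, n = 4) of Rpl7l1 plus Rpl7 in DMSO and 6.79% ± 0.107 in CHIR99021, with 8.40% to 8.70% in the controls and 6.64% to 6.89% in the treated samples. The groups were far apart. Rps27l, a p53 target that replaces Rps27 in part of the ribosomes, made up 28.7% ± 1.47 of its pair in DMSO and 27.3% ± 1.48 in CHIR99021, which overlapped. Rps27l changed by 0.48 ± 0.07 and Rps27 by 0.58 ± 0.05. Rpl22l1 made up 3.99% ± 0.401 of its pair in DMSO and 4.15% ± 0.416 in CHIR99021, which overlapped too.

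The paralogs known from muscle and testis were not detectable or nearly so. Rpl3l, the muscle form of Rpl3, had 2, 1, 4 and 1 counts in DMSO and 1, 1, 2 and 1 counts in CHIR99021. Rpl39l, the testis form of Rpl39, had 0 counts in 7 samples, where a count of 0 allows up to 3 counts, or 0.162 to 0.200 CPM, and 1 count in CHIR99021 replicate 3. Their partners were abundant. Rpl3 had 1095 to 1210 CPM in DMSO and 1441 to 1606 in CHIR99021 (0.39 ± 0.05), and Rpl39 had 94.9 to 121 and 147 to 159 (0.50 ± 0.07).

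Levels per length differed widely between members. On the CPM scale per kilobase of the main annotated mRNA, the DMSO level had a median of 491 and an interquartile range of 283 to 715. Rps6 was highest with 1447 CPM per kilobase, followed by Rplp0 with 1374 and Rps26 with 1342. By FPKM, which divides by the deposited gene length (median 1775.5 bases over the tested members, against 756 for the mRNA), Rps3a1 (1225), Rplp0 (1176) and Rpl4 (979) led in DMSO. Of the tested members Rpl24 was lowest on both scales, with 1.07 CPM per kilobase and an FPKM of 0.738, and Rpl13a (11.1 CPM per kilobase) and Rpl22l1 (16.6) came next.

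Among the 5 tested members with the lowest values, 4 had over 50% of their exon bases covered by another annotated gene. The overlap covered 71.5% of the exon bases of Rpl24, all on the same strand, and 59.3% of those of Rpl13a, also on the same strand. For Rpl23a (25.6 CPM per kilobase) and Rpl35 (20.6) the other gene lay on the opposite strand over 55.4% and 68.3%. For Rpl22l1, the other of the 5, the overlap was 28.8%, none of it on the same strand. Rps10 and Rps25 were overlapped over 86.3% and 52.2% and yet reached 549 and 272 CPM per kilobase. Of the 82 members 79 shared at least 1 stretch of 50 bases with an annotated pseudogene, and the median tested member shared 56.0% of its stretches with another gene. Neither the fold changes nor the calls followed the shared share: the 34 members below 50% had a median log2 fold change of 0.54 with 33 called higher, and the 46 others had 0.53 with 44 called higher. How overlapping or multiply mapped reads were counted was not tested, so the absolute levels of these members are uncertain.

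Rpl24 was the remaining member without a call. It had 14, 17, 9 and 10 counts in DMSO and 17, 11, 13 and 23 counts in CHIR99021, and its change of 0.54 ± 0.31 (edgeR adjusted p = 0.179) was close to the family's median but did not pass the test. It passed in 3 of 25 alternatives, all with limma after quantile normalisation, with log2 fold changes of 0.38 to 0.80. Over the alternatives its adjusted p ran from 0.0239 to 0.466. Of the 77 members with at least 200 counts in every sample, 76 were called higher.

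**Figure D4:**
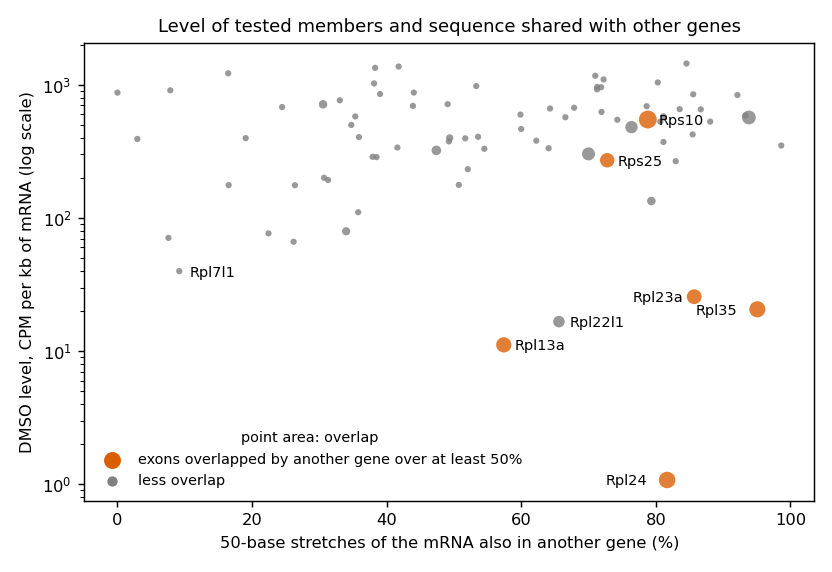
DMSO level of each tested member in CPM per kilobase of mRNA (y axis, log scale) against the percent of its 50-base stretches that another annotated gene also holds (x axis); orange points are members whose exons another gene overlaps over at least 50%, and point area grows with the overlap. Rpl24, Rpl13a, Rpl35 and Rpl23a lie at or below 25.6 CPM per kilobase, and Rps10 and Rps25 lie within the main cloud.

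The rows of ribosomal protein pseudogenes, which can take reads from their parent genes, moved alike. These 166 genes held 0.130% ± 0.00604 (SD, n = 4) of the counts in DMSO and 0.168% ± 0.00974 in CHIR99021. Of the 59 tested, 33 were called higher and 26 passed in neither direction, with a median of 0.47.

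Start sites were read from RefSeq (GRCm38.p6), where 62 of the 82 members were listed, to show the sequence from which TOP mRNAs start. The windows run from 40 bases before the listed start to 20 bases from it, 5′ to 3′ on the gene's strand, and capitals mark a C followed by at least 4 pyrimidines that begins within 15 bases of the start. The first 5 genes are members with large or typical changes and the last 3 are the members at the low end.
Rps12, chr10:23787190-23787249, minus strand: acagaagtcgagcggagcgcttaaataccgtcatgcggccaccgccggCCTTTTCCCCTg
Rpl28, chr7:4792925-4792984, plus strand: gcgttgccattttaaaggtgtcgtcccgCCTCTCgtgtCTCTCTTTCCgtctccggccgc
Rplp0, chr5:115559427-115559486, plus strand: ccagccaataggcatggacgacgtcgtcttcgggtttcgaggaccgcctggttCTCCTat
Rps6, chr4:86857348-86857407, minus strand: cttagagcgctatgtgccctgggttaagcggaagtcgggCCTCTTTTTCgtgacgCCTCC
Rpl38, chr11:114668540-114668599, plus strand: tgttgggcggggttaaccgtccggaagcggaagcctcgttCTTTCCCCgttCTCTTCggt
Rpl22, chr4:152325686-152325745, plus strand: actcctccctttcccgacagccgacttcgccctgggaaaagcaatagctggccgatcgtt
Rpl22l1, chr3:28805468-28805527, plus strand: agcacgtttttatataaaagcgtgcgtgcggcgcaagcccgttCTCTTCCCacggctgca
Rpl7l1, chr17:46782637-46782696, minus strand: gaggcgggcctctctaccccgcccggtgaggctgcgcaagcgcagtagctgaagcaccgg

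Rps12, Rpl28, Rplp0, Rps6, Rpl38 and Rpl22l1 each have such a run in the window, and Rpl7l1 and the shown start of Rpl22 have none that begins so close to the start, although both windows hold runs of pyrimidines farther upstream. Rpl22 has 2 listed starts, and its other start has such a run. In the counts that follow, a gene was taken to have a run or motif if any of its listed starts did. A C with 4 pyrimidines exactly at the listed start was found in 13 of 62 members (21.0%) in 3.01% of the 27025 genes in the table and in 3.02% of the 11640 of these that were tested here. Within 15 bases, a wider search chosen after the first count was known, it was found in 42 of 62 members (67.7%), in 43.3% of all genes and in 45.6% of the tested genes. Listed starts can lie several bases from the start in use, and no match says only that no such run begins within 15 bases of a listed start.

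The same table was searched for short motifs on both strands of each promoter, from 250 bases before the start to 50 after it. CCGGAAG, which ETS factors bind, was in 41.9% of the members' promoters, 9.93% of all and those of 2091 of the 11640 tested genes. CACGTG, the E-box that MYC binds, was in 9.68% of the members, 8.09% of all and 11.3% of tested genes, and AAGATGGC, bound by YY1, in 9.68%, 3.19% and 4.75%. CTTTGAA or CTTTGAT, which TCF/LEF factors of the Wnt pathway bind, was in 1 of 62 members (1.61%), in 9.88% of all promoters and in 7.18% of those of tested genes. These are letter matches and not sites of binding.

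Ribosomal protein genes that the name rule does not reach were alike where they could be counted. Fau, which encodes RPS30 as a fusion, had 251, 261, 288 and 265 CPM in DMSO and 443, 414, 406 and 421 CPM in CHIR99021 (0.66 ± 0.05, edgeR adjusted p = 4.66e-07). Rack1, a signalling scaffold of the small subunit, had 1214 to 1279 and 1870 to 2040 CPM (0.65 ± 0.05, edgeR adjusted p = 3.13e-07). Rpl36al, whose exons other genes cover over 63.1%, had means of 0.704 CPM in DMSO and 1.14 CPM in CHIR99021 and was not called (0.71 ± 0.38, edgeR adjusted p = 0.148).

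Other genes tied to translation or to ribosomes were looked at by list. A list of 19 genes, many of them encoded by TOP mRNAs, held translation factors along with others such as Hnrnpa1 and Nap1l1. Of these 19 genes 17 were called higher and the other 2 passed in neither direction, with a median of 0.32. Eef1b2 changed by 0.79 ± 0.05, Eef1a1 by 0.56 ± 0.05, Naca by 0.47 ± 0.04 and Nap1l1 by 0.44 ± 0.04. Of 5 host genes of small nucleolar RNAs whose transcripts begin with a TOP motif, a list added after the data were seen, all 5 were higher with a median of 0.60, and Gas5 had 104 to 116 CPM in DMSO and 175 to 201 in CHIR99021. Genes that build ribosomes are given against the 23.7% of all tested genes that were called higher. Of 34 ribosome assembly factors, 13 were higher, 3 lower and 18 neither, with a median of 0.04. Gnl3 changed by 0.36 ± 0.05 and Nolc1 by -0.26 ± 0.05. Of 14 genes of RNA polymerase I and its factors, 5 were higher and 9 passed in neither direction, with a median of 0.15, and Taf1d and Polr1d changed most clearly at 0.52 ± 0.07 and 0.49 ± 0.05.

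The proteins of the mitochondrial ribosome, encoded in the nucleus by 77 genes, were higher for 8 genes, lower for 1 and neither for 68, with a median of 0.05. Their share of counts was 0.200% ± 0.00510 in DMSO and 0.189% ± 0.00572 in CHIR99021. Cytosolic tRNA synthetases were higher for 7 and lower for 6 of 20, with a median of -0.02. ATF4 response genes were lower for 7 and higher for 1 of 10, with a median of -0.38. The shares over all tested genes were 23.7% higher and 25.0% lower.

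**Figure D5:**
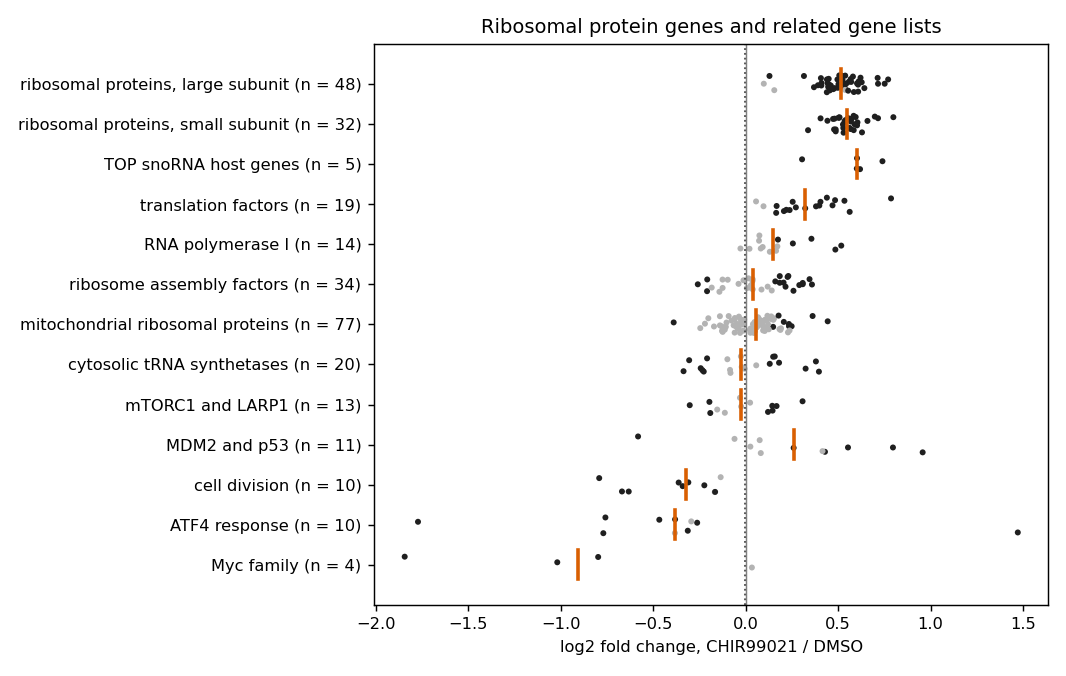
The log2 fold change of CHIR99021 over DMSO (x axis) of each tested gene (points, black where the adjusted p is under 0.05 and grey otherwise) in the ribosomal protein family and in 11 related lists; orange bars are list medians and the dotted line is the median of all tested genes. Ribosomal proteins, snoRNA host genes and the mixed list labelled translation factors lie to the right of 0. Assembly factors and mitochondrial ribosomal proteins lie around it, and Myc, Mycn and Mycl lie to its left.

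Known regulators of the family were lower or mixed. Myc had 92.5, 85.4, 65.7 and 82.6 CPM in DMSO and 21.8, 27.9, 21.8 and 19.3 CPM in CHIR99021 (log2 fold change -1.84 ± 0.13, edgeR adjusted p = 1.55e-06). Mycn changed by -1.02 ± 0.11 and Mycl by -0.80 ± 0.09, with no overlap between groups in any of the 3. Max, their partner, was at 0.03 ± 0.07 and was not called. Of 13 genes of mTORC1 and LARP1, 5 were higher and 3 lower, with a median of -0.02. Of all tested genes 23.7% were higher and 25.0% lower. Tsc1, which restrains mTORC1, changed by 0.31 ± 0.07, Mtor by -0.20 ± 0.05 and Eif4ebp1 by -0.30 ± 0.07.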

How the data were processed

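RNA from 8 embryonic mouse kidneys in culture was sequenced. Per the labels, reads were aligned to GRCm38 with HISAT2 2.0.5. The deposited counts are the authors' whole-number featureCounts values per gene, and the deposited FPKM values are those counts per kilobase of gene and relative to the library total. Whether counting used strand is not stated in the sources used here. Columns of the authors' own comparison (fold changes and p-values) were not used.

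Counts were fitted with edgeR 4.0.16 (filterByExpr, TMM, robust quasi-likelihood test, Benjamini-Hochberg over 16723 genes) in R 4.3.3 (TMM factors 1.04 to 1.06 in DMSO and 0.948 to 0.963 in CHIR99021), with both groups of 4 in the fit and a call at an adjusted p under 0.05. CPM are counts per 1000000 of the TMM-scaled library. The replicate number was the alternative block: the study paired the kidneys of an embryo, and deviations of same-numbered samples correlated at 0.111 to 0.346, against -0.180 to 0.0766 for other pairs. The labels do not say that numbers stand for embryos, and the main fit did not use the pairing. Its p-values set the difference between the groups against the spread between these samples, treated as unpaired. limma 3.58.1 and DESeq2 1.42.0 served as alternatives. The fit was also run on simulated data, in which far fewer genes changed than were called here, so that run does not test the scaling. Shared stretches and overlaps came from GENCODE M21 (GRCm38) transcripts, which may not be the annotation that was counted.

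The members and lists were chosen with earlier results of these data known. Genes named with values were the 6 highest and 6 lowest log2 fold changes, tested paralogs with their partners, the 3 highest and 3 lowest FPKM, 11 members of known roles and untested members, and up to 4 genes per other list by p. Others, such as Rps26, Rpl35, Rpl23a, Rps10 and Rps25, were named after their values were seen. Some genes are not reported by name here.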

Additional observations from a re-analysis of the deposited data

Results flagged for a closer look

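Within a group of 4, a sample's gap to the nearest other was divided by the range of the group. The sample was looked at again where this ratio exceeded Dixon's 95% critical value. Chance gives this in about 1 group in 20, and 206 groups were tested. In the family, DMSO replicate 3 held 4.20% of its counts in ribosomal protein genes against 3.86% to 3.89% in the other controls. CHIR99021 replicate 1 had 776 CPM of Rps12 against 629 to 634 and 586 CPM of Rpl10a against 534 to 537. CHIR99021 replicate 2 had 1726 CPM of Rps6 against 1819 to 1828 and 11.4 CPM of Rpl22l1 against 9.62 to 9.92. DMSO replicate 4 had 1113 CPM of Rpl5 against 1175 to 1182.

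Outside the family, CHIR99021 replicate 1 had 0.562 CPM of Alas2, 87.4 of Asns, 280 of Cdkn1a and 90.7 of Phlda3. DMSO replicate 1 had 125 CPM of Cdkn1a and 18.1 of Mycl. CHIR99021 replicate 2 had 103 CPM of Nolc1 and 233 of Sall1, replicate 3 had 0.0718 of Serpina1a (1 count against 0 in the others), and replicate 4 had 18821 of mt-Co1.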

How the results depend on the processing

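With the replicate number as a block, the count of members called higher was 76 with a median of 0.53, and of the members described only Rpl7l1 lost its call, at an adjusted p of 0.0604 in edgeR. RLE factors, DESeq2, limma-voom, TMM without mitochondrial genes and members, other filters and protein-coding genes alone left 75 to 78 members higher. Leaving out 1 sample in turn gave 75 to 78 members higher and 0 lower, medians of 0.51 to 0.55, 7438 to 7817 genes called in all, and differences in the share of counts of 1.23 to 1.40 percentage points. The differences in paralog share then ran from -0.04 to 0.26 percentage points for Rpl22l1, from -1.87 to -1.76 for Rpl7l1 and from -1.97 to -0.752 for Rps27l. 

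Library totals alone moved the median of all genes to -0.14 and that of the members to 0.39, or 0.53 relative to all genes, with 29.0% of all calls higher in place of 48.6%. limma on log2(FPKM + 1) and log2(FPKM + 0.1), which share those totals, gave 0.39 and 0.39. On these 3 scales Rpl7l1 was at -0.0072, -0.0069 and -0.0071. limma on log2(count + 1) after quantile normalisation gave a median of 0.32 with and without the block, with Rpsa at -0.0084 and mt-Nd1 at -0.0047 in both. By its construction this step gives genes of the same rank the same value in every sample. FPKM after quantile normalisation, an alternative chosen after seeing the data, gave 47 members higher, 1 lower (Rpl22) and a median of 0.18 with a pseudocount of 1, and 45, 1 and 0.18 with 0.1. With these pseudocounts Rpl22 was at -0.21 and -0.22, Rpl7l1 at -0.021 and -0.022, Rpl36 at -0.15 and -0.15, Rpl8 at -0.058 and -0.058, Rpl3 at -0.095 and -0.095, Rpl7 at -0.022 and -0.022, Npm1 at -0.14 and -0.14 and mt-Nd1 at -0.17 and -0.17. Why the FPKM distribution weighs more was not tested. With a log2 fold change over 1 also required, 0 members and 2309 of all genes were called. By summed FPKM the family's share differed by 2.13 percentage points.

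Rpl24 had 9 to 23 counts per sample and Rpl3l and Rpl39l at most 4, which limits the precision of their values.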

Other observations

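Across the 80 tested members, the size of the change was only weakly related to other properties of the genes. Spearman's rho between the log2 fold change and the mean CPM of the DMSO samples was 0.26. With the length of the mRNA it was 0.20, and with the share of 50-base stretches found in other genes 0.04. These points share the 8 libraries, and genes are not independent replicates, so no p is given. The members lie on 19 chromosomes, with 14 of the 82 on chromosome 7. The 10 most counted members of each sample held 34.9% to 36.1% of the family's counts in both groups.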
